A study of Mus musculus with 12 samples.

Results

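The genes described here carry the interleukin-6 (IL-6) signal from the cell surface to transcription and back. They are the receptor chains Il6ra and Il6st, the kinase Jak2, the transcription factors Stat3, Stat5a and Stat5b, the feedback inhibitors Socs1, Socs3 and Cish, and the target kinase Pim1. These 10 members were taken by symbol from a count table of 35303 symbols, and all 10 passed the filter on low counts, which left 17676 genes to test. Counts came from bulk RNA-seq of 12 cultures of mouse myeloid-derived suppressor cells (MDSCs), grown from the bone marrow of wild-type C57BL/6 mice with GM-CSF and IL-6. The 3 groups, with 4 biological replicates each, were unmodified cells (MDSC), cells conjugated with blank polymer nanoparticles (MDSC-NP-Blk), and cells conjugated with nanoparticles that hold rapamycin, an inhibitor of the mTOR kinase (CITED). All 12 cultures received IL-6 before RNA was taken, so no group shows these genes without the cytokine. For that last culture the paper names IL-6 but not GM-CSF, which it names for the earlier growth from bone marrow. MDSC differs from the nanoparticle groups in both the particle and the conjugation, whereas rapamycin is what sets CITED apart from MDSC-NP-Blk.

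IL-6 binds its receptor alpha chain, encoded by Il6ra, and the complex recruits gp130, the signalling chain encoded by Il6st and shared with related cytokines. Janus kinases bound to the receptor then phosphorylate STAT proteins, mainly STAT3 for gp130 and STAT5A and STAT5B for the GM-CSF receptor, and the STAT dimers enter the nucleus. Among the genes they switch on are those of the SOCS family and CIS, which bind the receptors or kinases and limit the signal, and PIM1, a kinase that favours survival and growth. In myeloid cells this pathway is known for its part in the expansion and the suppressive activity of MDSCs.

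The libraries held 20604809 to 37855478 counts, and the members had between 654 counts (Stat5a) and 35720 counts (Pim1) in a library. Levels below are normalized counts, that is, counts scaled by library size and the TMM factor to the mean library. Those factors ranged from 1.12 to 1.15 for MDSC, 0.938 to 0.947 for MDSC-NP-Blk and 0.921 to 0.944 for CITED. When libraries were scaled by their size alone, an alternative chosen after seeing the data, the median log2 fold change of all genes tested moved to -0.32 in CITED against MDSC and to -0.29 in MDSC-NP-Blk against MDSC, from -0.05 and -0.03. The 8 markers of MDSCs and other myeloid cells were all present, with a summed level of 730530 to 829410 for MDSC, 956900 to 1012800 for MDSC-NP-Blk and 798900 to 908820 for CITED. The labels name the CNS as tissue, but 5 of 8 CNS markers (Rbfox3, Snap25, Syt1, Gfap and Aqp4) had 0 counts in all 12 libraries, and Mbp carried nearly all of the summed level of 1768 to 2243.

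The members that limit or follow the signal were higher in both nanoparticle groups, by 1.54-fold to 2.61-fold, and the receptor, kinase and STAT genes differed by 1.43-fold at most. Allowing for transcript length blurred this split for Il6ra. In CITED against MDSC its log2 fold change was then 0.85, beside 0.84 for Cish and 0.76 for Socs3. Socs1 (1.40) and Pim1 (0.98) stayed above Il6ra there. In MDSC-NP-Blk against MDSC, Il6ra was then 0.62. In CITED against MDSC, 7 of the 10 members were higher and 1 was lower at an adjusted p-value below 0.05 in edgeR's quasi-likelihood test. Of all genes tested, 22.2% were higher and 22.2% lower at that threshold. The shares of all genes given here and below include genes with few counts. Of the 17676 genes, 10556 had a mean above 50 normalized counts. Each member had at least 654 counts in a library, and the share among genes at such levels was not computed. With a log2 fold change of at least 1 as well, a gene is termed called here, and 2 members (Socs1 and Pim1) were, beside 9.99% of all genes tested. In MDSC-NP-Blk against MDSC, 8 members were higher and 1 was lower, where 19.9% of all genes tested were higher and 18.6% lower. A single member, Socs1, was called in that comparison, beside 4.74% of all genes. In CITED against MDSC-NP-Blk, 3 members were higher and 0 lower, where 10.5% of all genes were higher and 11.4% lower. No member was called between these 2 groups by edgeR or DESeq2, beside 2.65% of all genes, and the member difference of greatest size was 0.29 on the log2 scale (Socs1). The median log2 fold change of the members was 0.42, 0.31 and 0.10 in the 3 comparisons, against -0.05, -0.03 and 0 over all genes tested. The comparisons with MDSC use the same 4 MDSC libraries, so their values are given side by side and not as separate evidence.

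**Figure D1:**
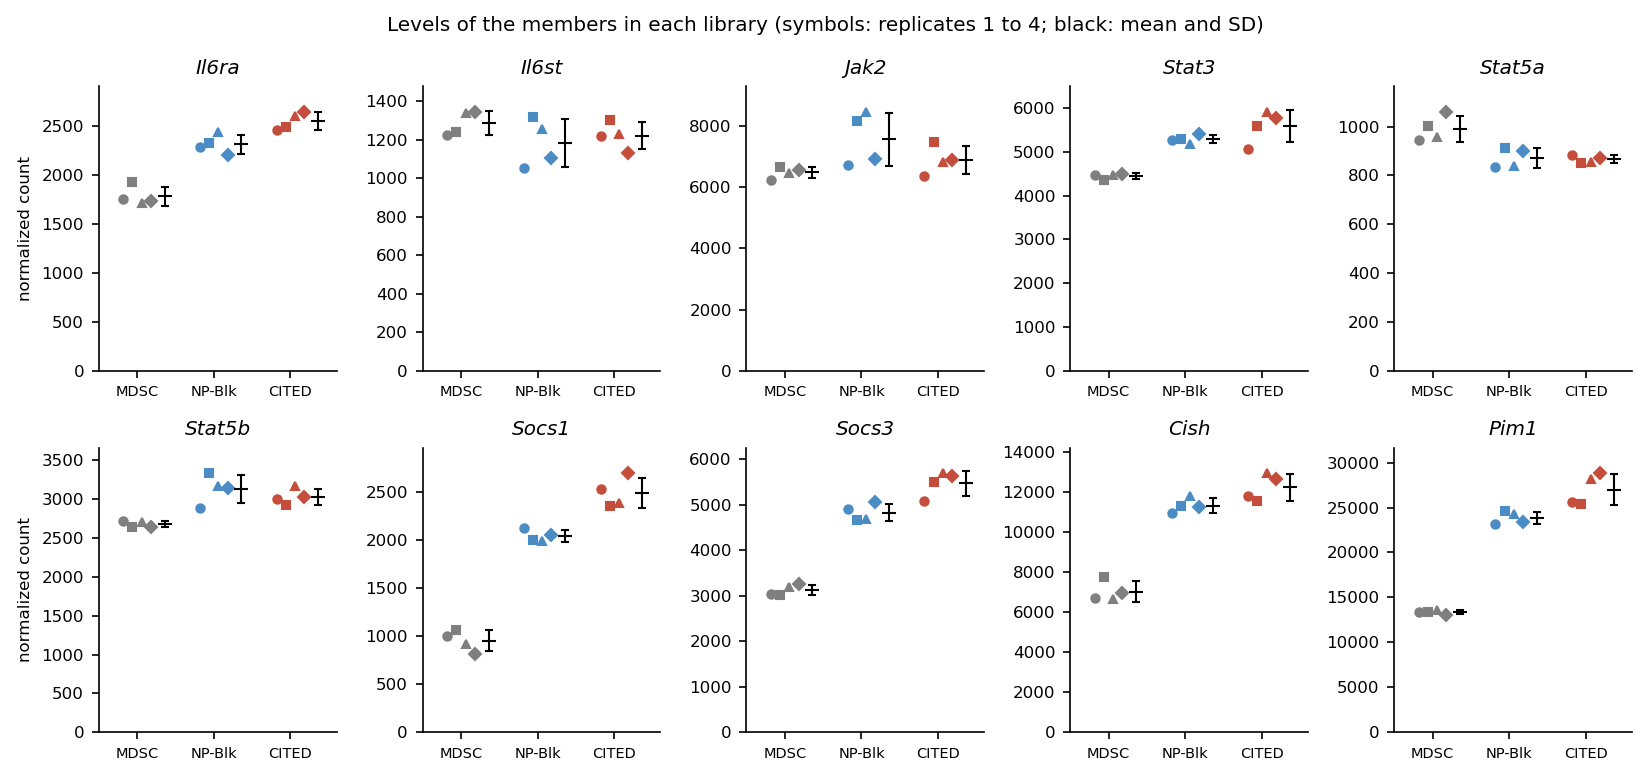
Normalized counts (vertical axes, from 0) of the 10 members in each of the 12 libraries, by group; symbols stand for replicates 1 to 4 and black bars for the mean and SD. Socs1, Socs3 and Pim1 show 3 levels that do not overlap, with MDSC lowest and CITED highest, whereas the Il6st libraries of the 3 groups overlap.

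Socs1 encodes the inhibitor that binds Janus kinases directly and blocks their activity. Its normalized counts were 1006, 1068, 923 and 821 in MDSC replicates 1 to 4. They were 2124, 1998, 1992 and 2051 in MDSC-NP-Blk and 2532, 2354, 2390 and 2696 in CITED. Every nanoparticle library thus stood above every MDSC library, and every CITED library above every MDSC-NP-Blk library. Socs1 was 2.61-fold higher in CITED than in MDSC (log2 fold change 1.38 ± 0.068 (SE, n = 4), adjusted p 2.88e-18, edgeR). In MDSC-NP-Blk it was 2.14-fold higher than in MDSC (1.09 ± 0.068, adjusted p 3.89e-15, edgeR). CITED exceeded MDSC-NP-Blk by 1.22-fold (0.29 ± 0.066, adjusted p 0.0011, edgeR). With library size alone as the scaling, the difference of Socs1 between MDSC-NP-Blk and MDSC was 0.83 and it was not called.

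Socs3 encodes the inhibitor that binds gp130 together with the kinase and is the main brake on IL-6 receptors. MDSC libraries held 3041, 3029, 3202 and 3252 normalized counts, MDSC-NP-Blk libraries 4900, 4678, 4689 and 5056, and CITED libraries 5081, 5504, 5694 and 5639. The ranges of the 3 groups did not overlap, although the lowest CITED library lay close above the highest MDSC-NP-Blk library. The log2 fold change was 0.81 ± 0.051 (SE) in CITED against MDSC (adjusted p 1.72e-15, edgeR), 0.63 ± 0.051 in MDSC-NP-Blk against MDSC (adjusted p 2.41e-12) and 0.18 ± 0.050 in CITED against MDSC-NP-Blk (adjusted p 0.00654).

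Cish encodes CIS, the family member known for restraining STAT5 signals of cytokine receptors such as that for GM-CSF. Its normalized counts were 6723, 7755, 6649 and 6964 for MDSC, 10935, 11276, 11789 and 11233 for MDSC-NP-Blk and 11771, 11538, 12911 and 12653 for CITED. Both nanoparticle groups were clear of MDSC, but they overlapped each other. Cish was 1.74-fold higher in CITED than in MDSC (0.80 ± 0.052 (SE) on the log2 scale, adjusted p 3.39e-15, edgeR) and 1.61-fold higher in MDSC-NP-Blk than in MDSC (0.69 ± 0.051, adjusted p 3.51e-13). The difference between CITED and MDSC-NP-Blk, 0.11 ± 0.051 on the log2 scale, missed the threshold (adjusted p 0.126, edgeR) and passed it with a correction for transcript length (adjusted p 0.0336).

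Pim1, the survival kinase, was the most abundant member. Its normalized counts were 13381, 13438, 13582 and 13071 for MDSC, 23162, 24632, 24231 and 23363 for MDSC-NP-Blk and 25606, 25381, 28142 and 28791 for CITED. The MDSC libraries were nearly alike (CV 1.61%), and no library of one group reached the range of another. Pim1 was 2.02-fold higher in CITED than in MDSC (log2 fold change 1.01 ± 0.046 (SE), adjusted p 3.15e-19, edgeR) and was 1.78-fold higher in MDSC-NP-Blk (0.84 ± 0.046, adjusted p 1.76e-16). CITED exceeded MDSC-NP-Blk by 0.18 ± 0.045 on the log2 scale (adjusted p 0.00337, edgeR). Its place just past the fold threshold in CITED was lost without CITED replicate 4 or CITED replicate 3 (lowest value 0.98), with a length correction or with library size alone (0.74), so the number of members called then fell to 1.

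**Figure D2:**
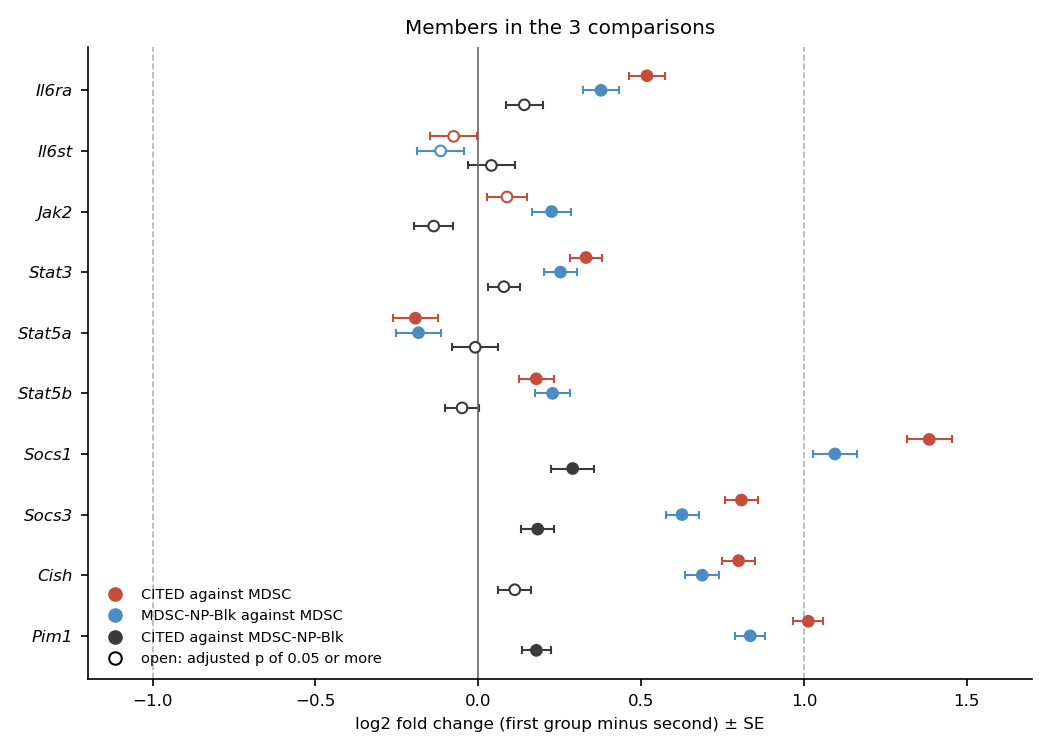
Log2 fold change of each member (horizontal axis, first group minus second, bars ± SE) in the 3 comparisons; open points have an adjusted p of 0.05 or more and dashed lines mark the fold threshold of 1. Socs1 (1.38), Pim1 (1.01), Socs3 (0.81) and Cish (0.80) lie farthest to the right in CITED against MDSC.

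STAT dimers are known to bind the letters TTCNNNGAA, which read the same on both strands, so the promoters of the members were searched for them. RefSeq promoter windows of 300 bases (250 before and 50 after a start site; table build GRCm38.p6) were found for all 10 members, 13 windows in all, and each was placed on GRCm39 by an exact match of its sequence. Windows of 2 members, Socs3 and Cish, hold the motif, and 8.30% of all 32851 windows of this length do. Cish holds 2 matches, and 0.457% of all windows hold 2 or more. A link between these letters and the differences from MDSC was not tested. The matches are shown in capitals in 30-base stretches.
Socs3, chr11:117860327-117860356, minus strand, GRCm39: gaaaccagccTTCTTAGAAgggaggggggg
Cish, chr9:107173853-107173882, plus strand, GRCm39: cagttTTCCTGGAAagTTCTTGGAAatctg
The Socs3 match starts 154 bases before the RefSeq start site, and those of Cish start at bases 1 and 12 of the transcript, with the start site as base 1. In the GENCODE annotation of GRCm39 the genes start further upstream, at 107173225 for Cish and 117860898 for Socs3. The RefSeq start sites used here are 107173858 and 117860192. Both stretches thus lie inside the annotated gene spans. The windows of the other 8 members, Socs1 and Pim1 included, do not hold these letters, which says nothing of binding elsewhere.

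Of the receptor chains, Il6ra passed in both comparisons with MDSC and Il6st in neither. Il6ra, the chain that binds IL-6, had normalized counts of 1752, 1927, 1713 and 1739 for MDSC, 2292, 2324, 2438 and 2202 for MDSC-NP-Blk and 2459, 2496, 2607 and 2646 for CITED. The 3 ranges did not overlap. Il6ra was 1.43-fold higher in CITED than in MDSC (log2 fold change 0.52 ± 0.057 (SE), adjusted p 1.35e-09, edgeR) and 1.30-fold higher in MDSC-NP-Blk than in MDSC (0.38 ± 0.056, adjusted p 1.19e-06). The correction for transcript length raised these to 0.85 and 0.62, whereas with library size alone the latter was 0.11 and missed the threshold (adjusted p 0.104, edgeR). CITED against MDSC-NP-Blk gave 0.14 ± 0.056, which missed the threshold in edgeR (adjusted p 0.0715) and passed it in DESeq2 (adjusted p 0.0225).

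Il6st, which encodes gp130, held 1224, 1238, 1339 and 1344 normalized counts for MDSC, 1054, 1319, 1257 and 1105 for MDSC-NP-Blk and 1220, 1301, 1231 and 1131 for CITED. The groups overlapped throughout. Its log2 fold change was -0.08 ± 0.072 (SE) in CITED against MDSC (adjusted p 0.42, edgeR), -0.12 ± 0.072 in MDSC-NP-Blk against MDSC (adjusted p 0.222) and 0.04 ± 0.073 in CITED against MDSC-NP-Blk (adjusted p 0.777). The Il6st values depended on the processing, and calls in opposite directions appeared. The length correction turned them to 0.26 in CITED against MDSC, which passed as higher (adjusted p 0.000763, edgeR), and 0.12 in MDSC-NP-Blk against MDSC, which did not (adjusted p 0.13). With library size alone they passed as lower, at -0.35 (adjusted p 0.000143) and -0.38 (adjusted p 5.95e-05), or -0.03 and -0.09 relative to the median gene. The ratio of Il6st to Il6ra counts within a library was 0.724 ± 0.066 (SD, n = 4) for MDSC, 0.511 ± 0.045 for MDSC-NP-Blk and 0.479 ± 0.040 for CITED, and each MDSC library stood above each nanoparticle library.

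Jak2 encodes the kinase that the GM-CSF receptor uses and that gp130 can also bind. Its normalized counts were 6218, 6662, 6447 and 6559 for MDSC, 6722, 8151, 8445 and 6920 for MDSC-NP-Blk and 6364, 7452, 6820 and 6876 for CITED. The MDSC-NP-Blk libraries fell into a lower pair and a higher pair, with the largest CV of any member in a group, 11.4%. They stood in the same order by Jak2 as by the rank correlation of expression with transcript length over 10519 genes, which was -0.421, -0.0457, 0.0915 and -0.244 in replicates 1 to 4, and the part of length in the Jak2 spread was not tested. The same pairs appeared over all genes with a mean above 50 normalized counts. There the chi-square of counts per degree of freedom was 6.01 for replicates 1 and 4 and 6.15 for 2 and 3. For the other pairs of MDSC-NP-Blk libraries it was 17.6 to 24.2, and it reached at most 9.75 within MDSC and 10.3 within CITED. This split bears on each comparison with MDSC-NP-Blk, and its cause was not tested. Jak2 was higher in MDSC-NP-Blk than in MDSC by 0.23 ± 0.060 (SE) on the log2 scale (adjusted p 0.00258, edgeR), a value that was -0.04 with library size alone and 0.25 relative to the median gene there. In CITED against MDSC the difference was 0.09 ± 0.060 (adjusted p 0.253, edgeR), which passed as lower at -0.19 with library size alone (adjusted p 0.0116) and as higher at 0.26 with the length correction (adjusted p 2.64e-05), and in CITED against MDSC-NP-Blk it was -0.14 ± 0.060 (adjusted p 0.108).

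Stat3, the transcription factor that gp130 activates, held 4467, 4347, 4463 and 4489 normalized counts for MDSC, 5277, 5297, 5181 and 5408 for MDSC-NP-Blk and 5060, 5597, 5909 and 5773 for CITED. All 8 nanoparticle libraries stood above the 4 MDSC libraries. The rise was smaller than that of the inhibitors, 0.33 ± 0.050 (SE) on the log2 scale in CITED (adjusted p 8.15e-07, edgeR) and 0.25 ± 0.050 in MDSC-NP-Blk (adjusted p 7.97e-05). With library size alone these values were 0.06 and -0.01, or 0.38 and 0.28 relative to the median gene. CITED and MDSC-NP-Blk overlapped (0.08 ± 0.050, adjusted p 0.298, edgeR).

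The STAT5 genes, which sit side by side on chromosome 11 and encode closely related factors, moved apart. Stat5b had 2712, 2637, 2705 and 2640 normalized counts for MDSC, 2886, 3326, 3168 and 3135 for MDSC-NP-Blk and 2991, 2925, 3163 and 3019 for CITED. Stat5a had 943, 1003, 958 and 1060 for MDSC, 834, 911, 838 and 902 for MDSC-NP-Blk and 885, 851, 856 and 873 for CITED. For both genes the nanoparticle libraries lay on one side of all MDSC libraries, above for Stat5b and below for Stat5a. Stat5b was 0.18 ± 0.053 (SE) higher on the log2 scale in CITED (adjusted p 0.0055, edgeR) and 0.23 ± 0.053 in MDSC-NP-Blk (adjusted p 0.000593), values that turned to -0.10 and -0.03 with library size alone and were 0.32 and 0.33 with the length correction. Stat5a was lower, by -0.19 ± 0.070 in CITED (adjusted p 0.0227, edgeR) and -0.18 ± 0.070 in MDSC-NP-Blk (adjusted p 0.0344). With library size alone the Stat5a values were -0.47 and -0.45 (adjusted p 7.08e-07 and 1.98e-06, edgeR), or -0.14 and -0.16 relative to the median gene. The Stat5a result in CITED was lost without MDSC replicate 4 (adjusted p 0.0991) and the one in MDSC-NP-Blk in 4 of 8 fits that each left out 1 library (MDSC replicate 2 or 4, MDSC-NP-Blk replicate 1 or 3), and the length correction ended both. Between CITED and MDSC-NP-Blk the difference was -0.05 ± 0.053 for Stat5b (adjusted p 0.568, edgeR) and -0.01 ± 0.070 for Stat5a (adjusted p 0.982), and the libraries overlapped for both. Of the 31-base words of Stat5a, 21.3% also occur in another gene, and of those of Stat5b 16.5%, 836 words being common to both, so the authors' assignment of reads could have split them. Within a library the ratio of Stat5a to Stat5b was 0.371 ± 0.025 (SD, n = 4) for MDSC, 0.279 ± 0.012 for MDSC-NP-Blk and 0.287 ± 0.011 for CITED.

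Ratios taken within a library do not depend on the scaling between libraries, and they put the inhibitors beside the factors that act on them. Socs3 stood at 0.705 ± 0.020 (SD, n = 4) of the Stat3 count for MDSC, 0.913 ± 0.024 for MDSC-NP-Blk and 0.982 ± 0.017 for CITED. Cish stood at 2.63 ± 0.223 times the Stat5b count for MDSC, 3.62 ± 0.176 for MDSC-NP-Blk and 4.04 ± 0.122 for CITED. For both ratios the libraries of the 3 groups did not overlap. The ratio of Socs1 to Socs3 was 0.306 ± 0.045 for MDSC, 0.423 ± 0.012 for MDSC-NP-Blk and 0.456 ± 0.038 for CITED, with overlap between the nanoparticle groups. These are ratios of counts, not of molecules, because the transcripts differ in length. They also carry the trend of expression with transcript length, which differed between the groups. Socs3 (2663 bases) is shorter than Stat3 (4567), and Cish (3647) is shorter than Stat5b (5095). The part of length in the differences of these ratios between groups was not tested.

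For levels to be compared between genes, normalized counts were divided by the length of the canonical transcript in kilobases. In MDSC, Pim1 came first (4700 ± 75.7 per kb, SD, n = 4, at percentile 98.2 of 17648 genes), then Cish (1926 ± 139), Jak2 (1177 ± 34.6) and Socs3 (1176 ± 42.3), then Stat3 (973 ± 14.0), Stat5b (525 ± 8.0), Socs1 (293 ± 32.8), Stat5a (250.4 ± 13.3), Il6ra (206 ± 11.3) and Il6st (148 ± 7.4). Jak2 and Socs3 overlapped there, as did Socs1 and Stat5a, and the other neighbours did not. In MDSC-NP-Blk, Socs3 (1814 ± 68.2) stood clear above Jak2 (1375 ± 157), and Socs1 (626 ± 18.8) reached the range of Stat5b (614 ± 35.7). In CITED, Socs1 (765 ± 47.7) stood above Stat5b (594 ± 19.7), Jak2 (1251 ± 81.1) overlapped Stat3 (1223 ± 81.6), and Pim1 reached 9487 ± 612 per kb. Il6ra passed Stat5a in both nanoparticle groups, and Il6st stayed last in each group.

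**Figure D3:**
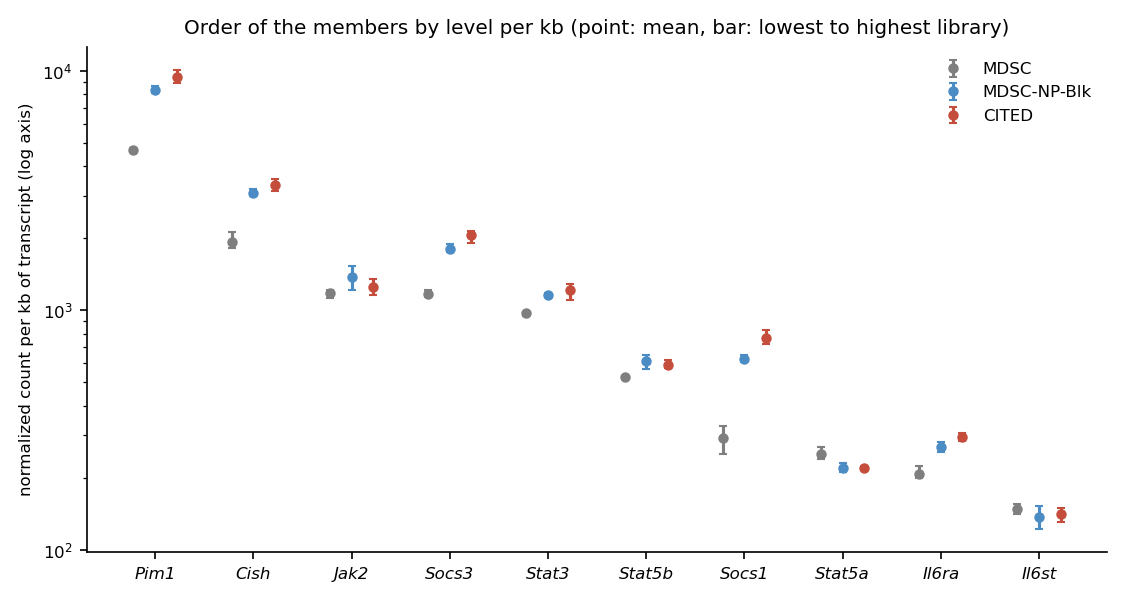
Normalized count per kilobase of transcript (vertical log axis) of the 10 members, ordered by their level in MDSC; points are group means and bars run from the lowest to the highest library. Pim1 leads in each group, and Socs1 moves from 293 per kb in MDSC to 765 per kb in CITED.

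The 10 members are protein-coding genes, placed here on GRCm39 by GENCODE release M39. Socs1 lies at chr16:10600104-10603875 (minus strand), Socs3 at chr11:117856905-117860898 (minus), Cish at chr9:107173225-107179983 (plus) and Pim1 at chr17:29709581-29715086 (plus). Il6ra lies at chr3:89771366-89820719 (minus), Il6st at chr13:112600604-112646620 (plus) and Jak2 at chr19:29228677-29290505 (plus). The 3 STAT genes form a cluster, with Stat5b at chr11:100671556-100741589 (minus), Stat5a at chr11:100750177-100776065 (plus) and Stat3 at chr11:100775924-100830450 (minus). Stat5a and Stat3 overlap by 142 bases at their 3′ ends on opposite strands. Each member other than Stat5b overlaps at least 1 annotated gene on the opposite strand. These overlaps were taken over whole gene spans, introns included, and overlap of exons was not examined. Whether strand was used in counting is not given in the sources used here. Reads from a stretch that lies in exons of both genes could not be told apart without it.

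Within groups the members varied by a CV of 1.44% (Stat3 in MDSC) to 11.4% (Jak2 in MDSC-NP-Blk). After the group means were taken out, the pairs whose log2 levels moved most alike over the 12 libraries were Il6ra with Cish (Pearson's r 0.870), Stat3 with Socs3 (0.832) and Il6st with Jak2 (0.775). These coefficients describe 12 libraries that share depth and preparation effects, and 45 pairs were compared. The genes whose log2 levels over the same libraries, group differences included, were most like those of Pim1 among 10555 genes were Junb (r 0.996), Mboat7 (0.996) and Tgfb1 (0.995). For Socs1 they were H3f3b (0.995), Ubald1 (0.995) and B2m (0.994), and for Socs3 they were Pim3 (0.994), Ogfr (0.993) and Gltp (0.992).

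The rest of the pathway was read from a list of 75 genes in 7 roles, of which 73 were tested and Osmr and Cntfr had no counts. In CITED against MDSC, 40 were higher, 13 lower and 20 did not pass, and 12 were called higher and 2 lower, beside the 22.2% higher, 22.2% lower and 9.99% called of all genes. In MDSC-NP-Blk against MDSC, 44 were higher, 10 lower and 19 did not pass, with 7 called higher and 1 lower, beside 19.9% higher, 18.6% lower and 4.74% called of all genes. With library size alone the first split was 34 higher and 24 lower and the second 32 and 17. In CITED against MDSC-NP-Blk, 20 were higher, 9 lower and 44 did not pass, and 0 were called by edgeR or DESeq2, beside 10.5% higher, 11.4% lower and 2.65% called of all genes. The median log2 fold change of the list was 0.46, 0.41 and 0.07.

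**Figure D4:**
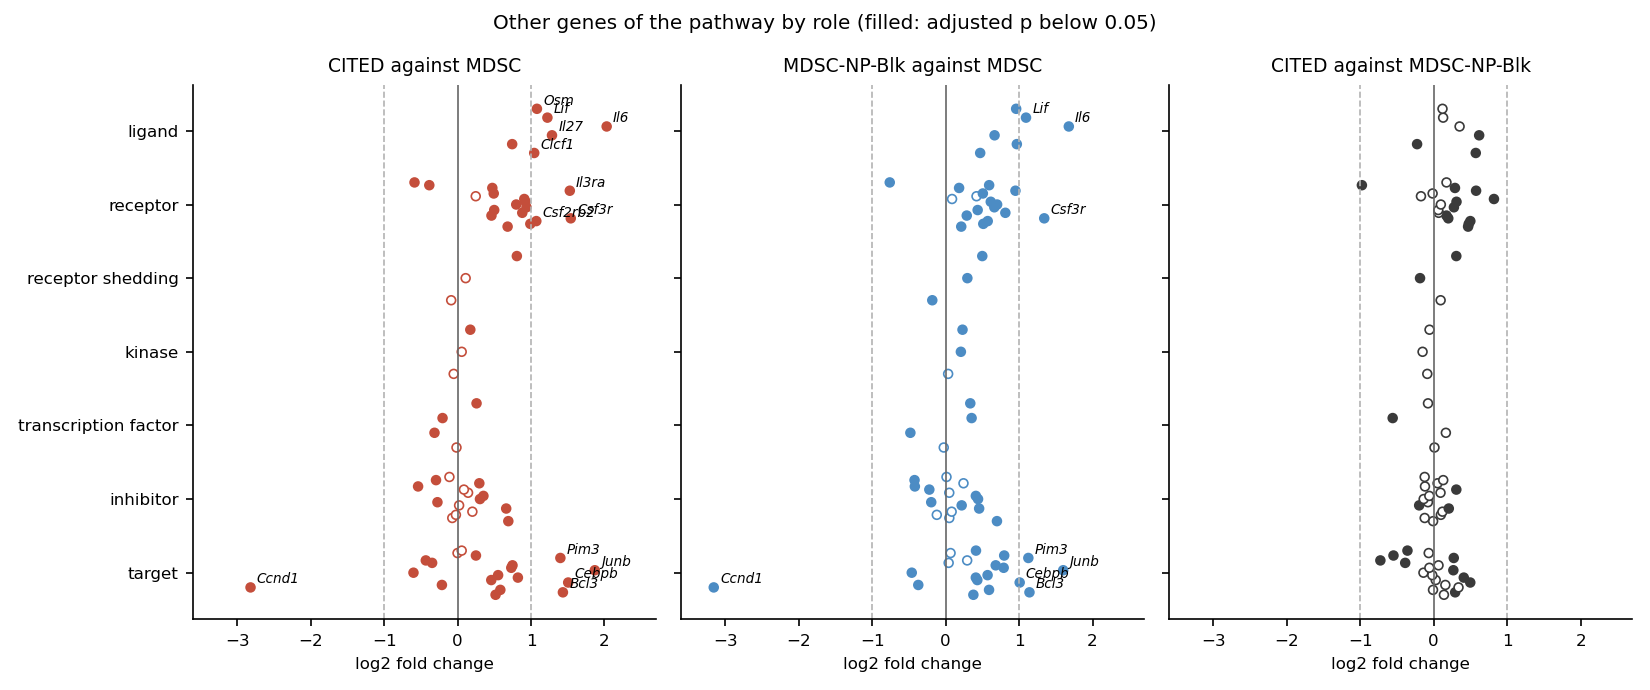
Log2 fold changes (horizontal axes) of 67 other genes of the pathway with a mean of at least 10 normalized counts in a group of the comparison, by role (rows) and comparison (panels). Filled points have an adjusted p below 0.05, dashed lines mark the fold threshold of 1, and called genes are named; Il6 (2.03), Junb (1.87) and Ccnd1 (-2.82) lie farthest out in CITED against MDSC.

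Ligands of the gp130 family were among the genes that moved furthest. Il6 itself, the gene of the cytokine the cells were given as protein, rose from 56.5 ± 15.8 normalized counts (SD, n = 4) in MDSC to 232.6 ± 18.7 in CITED (log2 fold change 2.03 ± 0.167 (SE), adjusted p 1.62e-12, edgeR). It rose by 1.68 ± 0.167 in MDSC-NP-Blk (adjusted p 3.2e-10), and the difference between CITED and MDSC-NP-Blk did not pass (0.35 ± 0.151, adjusted p 0.0979). Lif, a ligand of gp130 and the LIF receptor, was higher by 1.22 and 1.09 in CITED and MDSC-NP-Blk against MDSC, and Osm, which encodes oncostatin M, by 1.08 and 0.96. Il27 (1.29) and Clcf1 (1.04) were called in CITED against MDSC, and in MDSC-NP-Blk they were higher by 0.67 and 0.47. Ebi3, which encodes a partner chain of IL-27, was 0.74 higher in CITED and 0.97 higher in MDSC-NP-Blk, and lower in CITED than in MDSC-NP-Blk by -0.23 (adjusted p 0.00489, edgeR). Of 12 ligand genes, 6 were higher in each comparison with MDSC, beside 22.2% (CITED) and 19.9% (MDSC-NP-Blk) of all genes. Those 12 also hold Il10, Csf2 and Csf3, whose products bind other receptors. Il10, Il11, Csf2, Csf3, Cntf and Ctf1 had means below 10 normalized counts in every group. Scaling by library size alone ended the calls of Lif (0.95), Osm (0.81) and Clcf1 (0.77) in CITED and of Lif in MDSC-NP-Blk (0.83), while Il6 was still called, at 1.75 and 1.41. Cntf was called lower in CITED, but it had at most 10 counts in an MDSC library and 0 in CITED, and no fold is given.

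Among the other receptor genes, 14 of 17 tested were higher in each comparison with MDSC, beside 22.2% (CITED) and 19.9% (MDSC-NP-Blk) of all genes. With library size alone 14 and 11 of these receptor genes were higher. Il10ra, a chain of the IL-10 receptor, was higher by 0.80 in CITED and 0.70 in MDSC-NP-Blk. Csf3r, the G-CSF receptor, was called in both (1.54 ± 0.055 (SE) in CITED and 1.34 ± 0.055 in MDSC-NP-Blk, edgeR adjusted p 6.37e-22 and 9.4e-20), although 24.3% of its 31-base words occur in other genes. Il3ra, the alpha chain of the IL-3 receptor, was higher by 1.53 in CITED and 0.95 in MDSC-NP-Blk. Csf2rb, the signalling chain of the GM-CSF receptor, was higher by 0.99 and 0.51, and its relative Csf2rb2 by 1.07 and 0.57, with about as much shared sequence (30.2% and 30.7% of words), and with library size alone Csf2rb2 was not called (0.80). Both stood higher in CITED than in MDSC-NP-Blk, by 0.48 and 0.50 (edgeR adjusted p 1.15e-10 and 1e-09). Il11ra1, the IL-11 receptor, was higher there by 0.82 ± 0.075 (SE, adjusted p 1.32e-10, edgeR), with 55.2% of its words in other genes. In that comparison 10 receptor genes were higher and 1, Lepr, was lower, at -0.98 ± 0.116 (adjusted p 3.63e-08, edgeR). Of all genes, 10.5% were higher and 11.4% lower there. Without MDSC-NP-Blk replicate 2 or CITED replicate 3 Lepr was called, at -1.05 and -1.03.

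Of the genes that shed receptors from the cell surface, Rhbdf2, a partner of the protease ADAM17, exceeded its MDSC level by 0.81 in CITED and by 0.50 in MDSC-NP-Blk (edgeR adjusted p 1.06e-15 and 3.05e-10). Adam17 itself gave 0.11 in CITED (adjusted p 0.0615) and 0.30 in MDSC-NP-Blk (adjusted p 4.45e-06, edgeR). With library size alone Adam17 passed as lower in CITED, at -0.16 (adjusted p 0.00535, edgeR). In MDSC-NP-Blk it was then 0.03 and missed the threshold (adjusted p 0.615, edgeR). Adam10, the remaining gene of this role, gave -0.09 in CITED (adjusted p 0.207, edgeR) and -0.18 in MDSC-NP-Blk (adjusted p 0.00661).

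Among the kinases, the other STAT genes and the other inhibitors, 0 genes were called by edgeR in the comparisons with MDSC. Of all genes, 9.99% were called in CITED and 4.74% in MDSC-NP-Blk. Jak1 and Tyk2, the kinases that gp130 also binds, differed from MDSC by -0.05 and 0.17 in CITED and by 0.03 and 0.23 in MDSC-NP-Blk, of which the Tyk2 values passed (edgeR adjusted p 0.0123 and 0.00128) but turned to -0.10 and -0.03 with library size alone. Stat6, which IL-4 activates, was higher by 0.26 and 0.34, and with library size alone it was -0.02 and 0.07 and missed the threshold (adjusted p 0.815 and 0.192, edgeR). Stat2, which type I interferon activates, was lower by -0.31 and -0.48. Stat4 was lower in CITED than in MDSC-NP-Blk by -0.56 ± 0.081 (SE, adjusted p 1.67e-06, edgeR). Of 15 other inhibitors, 5 were higher and 3 lower in CITED against MDSC, beside 22.2% higher and 22.2% lower of all genes. In MDSC-NP-Blk against MDSC, 5 were higher and 4 lower, beside 19.9% and 18.6% of all genes. These splits turned with the scaling, to 2 higher and 8 lower and to 3 and 8 with library size alone, and to 7 and 1 and to 8 and 3 with the length correction. The phosphatase gene Dusp22 was 0.69 and 0.70 higher. Socs2, the family member known for restraining growth hormone signals, stood at 0.09 in CITED (adjusted p 0.339, edgeR) and -0.22 in MDSC-NP-Blk (adjusted p 0.0116). Socs4 was lower in both, by -0.54 and -0.42 (edgeR adjusted p 4.31e-08 and 5.19e-06), and so was Socs6, by -0.29 and -0.42 (adjusted p 0.002 and 3.11e-05). Socs5 gave 0.30 in CITED (adjusted p 0.0417, edgeR) and 0.24 in MDSC-NP-Blk (adjusted p 0.11), and Socs7 passed in neither. The values of these 4 genes with the length correction are not given here.

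Targets of STAT3 and STAT5 moved in both directions. Of 19, 12 were higher and 5 lower in CITED against MDSC, beside 22.2% higher and 22.2% lower of all genes. In MDSC-NP-Blk against MDSC, 13 were higher and 3 lower, beside 19.9% and 18.6% of all genes. The genes called higher in both were Junb, a subunit of AP-1 (1.87 and 1.60), Cebpb, a factor of myeloid differentiation (1.51 and 1.01), Bcl3, a nuclear partner of NF-kappaB (1.43 and 1.14), and Pim3, the relative of Pim1 (1.40 and 1.13). Cebpb (0.75), Bcl3 (0.88) and Pim3 (0.86) were not called in MDSC-NP-Blk with library size alone. Ccnd1, which encodes cyclin D1, was called lower in both, from 495 ± 31.6 normalized counts (SD, n = 4) in MDSC to 69.5 ± 15.3 in CITED and 55.2 ± 10.1 in MDSC-NP-Blk. In CITED against MDSC-NP-Blk, 5 targets were higher and 4 lower, beside 10.5% and 11.4% of all genes. Cebpb was higher by 0.50 (adjusted p 1.65e-09, edgeR) and Hif1a by 0.41 (adjusted p 1.51e-06). The lower targets were Pim2 (-0.73, edgeR adjusted p 0.000132), Saa3 (-0.55, adjusted p 3.09e-06), Myc (-0.39, adjusted p 8.01e-05) and Vegfa (-0.36, adjusted p 2.26e-06).

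Other markers and library measures moved with the groups. The summed level of 5 B cell markers was 271 to 369 for MDSC, 175 to 251 for MDSC-NP-Blk and 71.5 to 100.3 for CITED, and that of 5 mast cell and basophil markers was 5021 to 5441, 5472 to 6316 and 3659 to 3779. Neither list reached more than 0.745% of the summed myeloid markers of its group. T cell, erythroid and stromal markers summed to at most 83.4, 67.4 and 138 in a library. The myeloid markers differed in pattern. Csf1r had 10790 to 11850 normalized counts for MDSC, 20510 to 21850 for MDSC-NP-Blk and 22290 to 22890 for CITED. Ly6c2, a marker of monocytic cells, had 24950 to 26040, 33230 to 34120 and 19120 to 21940 in the same order. S100a8 (316400 to 342000) and S100a9 (367800 to 410100) were highest in MDSC-NP-Blk, and their MDSC and CITED libraries overlapped. Itgam was lowest in MDSC and highest in CITED without overlap, and Ly6g, Ly6c1 and Lyz2 overlapped between at least 2 groups. The share of counts from mitochondrial genes was 1.88 to 2.13% in MDSC, at most 1.68% in MDSC-NP-Blk and at most 1.53% in CITED. The rank correlation of expression with transcript length also moved with the groups, at 0.217 to 0.347 for MDSC, -0.421 to 0.0915 for MDSC-NP-Blk and -0.342 to -0.188 for CITED. The part of these in the differences of the members was not tested, and in bulk samples fewer cells of a type and less RNA per cell cannot be told apart.

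**Figure D5:**
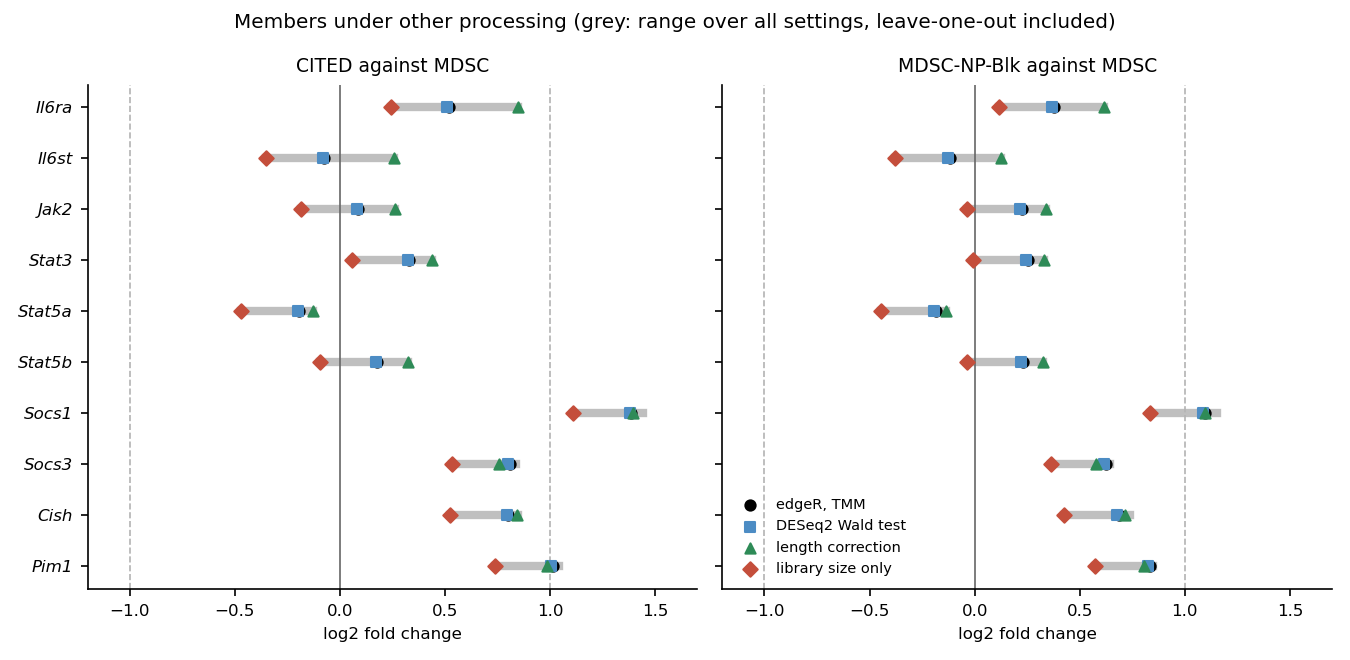
Log2 fold change of each member (horizontal axes) against MDSC under 4 settings, with grey bars for the range over all settings, fits without 1 library included. Socs1, Socs3, Cish and Pim1 stay to the right of 0 in both panels, whereas library size alone takes Jak2 and Stat5b below 0 in both and Stat3 below 0 in MDSC-NP-Blk against MDSC, and the length correction takes Il6st above 0.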

How the data were processed

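Bulk poly(A) RNA-seq was measured in 12 libraries, grouped by sample title, with 4 in each group. The table the authors deposited holds whole-number counts for each symbol, which the sources say were made with Salmon 1.4.0 on GRCm39 and R 4.3.2, with no normalization or filter. Salmon shares reads among similar transcripts, so counts of related genes can be split. The GENCODE release and the strand setting are not given in the sources used here. Depth was 20604809 to 37855478 counts, and 3 counts were the floor, which covers counting error only.

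The 17676 genes whose counts summed to 2 or more were tested with edgeR 4.0.16 in R 4.3.3 (TMM factors, glmQLFit and glmQLFTest, robust off, group as the only term, all 12 libraries), with Benjamini-Hochberg adjustment over every gene tested. A gene was called when its adjusted p lay below 0.05 and its log2 fold change reached 1 in size. The SE is the size of the log2 fold change over the root of F. The members and the gene lists were chosen with earlier results of these data known. The genes named are the 10 members, pathway genes called in a comparison, for each role and comparison the 2 pathway genes of lowest p, and the 3 genes most like each of 3 members, of which the text names a part. Lepr, Myc, Pim2, Saa3, Vegfa and Adam10 lie outside that rule and were chosen after their values were seen. The same holds for Socs4, Socs5, Socs6, Socs7, Il10, Il11, Csf2, Csf3 and Ctf1.

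Alternatives were DESeq2 1.42.0, its size factors in edgeR, upper quartile factors, no filter, filterByExpr, fits to just 8 libraries, a block for the replicate number, a correction for transcript length (loess, span 0.5) and fits without 1 library. Library size alone was added after seeing the data. The scripts were tested on simulated data with 200 genes changed in CITED, where edgeR called 203. With a length trend added to CITED, edgeR called 319 genes, and 202 after the length correction. All 200 changed genes were among those called each time. Values in the report come from fits without that correction unless stated. How the simulated trend compares in size with that in these data was not tested. A chi-square test of counts between libraries of the same group found none deposited more than once, and libraries of different groups were not compared.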

Additional observations from a re-analysis of the deposited data

How the results depend on the processing

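Under DESeq2, its size factors, upper quartile factors, both other filters and the 8 libraries alone, the 9 counts (members at an adjusted p below 0.05, members called and pathway genes called, in 3 comparisons) stayed within 1.5 times the values of the report. With the length correction, 1 member was called in CITED against MDSC and 5 members passed in CITED against MDSC-NP-Blk, where Il6ra and Cish joined the 3. With library size alone, 1 member was called in CITED against MDSC, and 0 members and 5 pathway genes in MDSC-NP-Blk against MDSC, where the report has 1 and 8. Leaving out 1 library gave 1 to 2 members called in CITED against MDSC and 0 to 1 pathway genes called in CITED against MDSC-NP-Blk. Single values changed sign as follows, and the cause was not tested. The length correction gave Il6st 0.26 in CITED against MDSC and 0.12 in MDSC-NP-Blk against MDSC, and Stat5a 0.0109 in CITED against MDSC-NP-Blk. Library size alone gave Jak2 -0.19 and Stat5b -0.10 in CITED against MDSC, and Jak2 -0.037, Stat3 -0.0101 and Stat5b -0.0343 in MDSC-NP-Blk against MDSC. In CITED against MDSC-NP-Blk, leaving out 1 library gave -0.0104 to 0.0983 for Il6st and -0.0286 to 0.0138 for Stat5a.

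With the replicate number as a block, 8 members passed and 2 were called in CITED against MDSC, 8 and 1 in MDSC-NP-Blk against MDSC, and 4 and 0 between the nanoparticle groups, while the pathway genes called were 13, 8 and 0. The block ended the Stat5a result in MDSC-NP-Blk against MDSC (adjusted p 0.0518, edgeR) and took Jak2 in CITED against MDSC-NP-Blk past the threshold (-0.13, adjusted p 0.0359, edgeR). The sources used here do not state that the number pairs the libraries. The deviations of libraries with the same number had mean correlations of 0.0103, -0.0174 and 0.0509 over 10556 genes. Those of libraries with different numbers had -0.0035, 0.0061 and -0.0166. Of 4 numbers, 1, 0 and 2 matched best. With 4 libraries in each group, these values cannot settle whether libraries of the same number share a preparation. Each member had at least 654 counts in a library.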
